A study of Rattus norvegicus with 6 samples.

Results

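The genes examined were 8 genes of fatty acid synthesis, fatty acid desaturation and acyl-CoA handling in the trigeminal nerve of rats. They are Acly, Aacs, Thrsp, Scd, Fads1, Acsl3, Acsbg1 and Acot7. The members were taken as all probes whose gene symbol in the platform annotation is one of these names, which gave 8 probes, 1 per gene, of 13316 genes named on the array. RNA from pooled trigeminal nerves of untreated rats aged 85 days was hybridised to Illumina rat expression BeadChips, bead arrays that report a fluorescence intensity per probe. There were 6 arrays in all, 1 for each combination of strain and sex, and how many animals made up a pool is not stated in the labels. The strains were the congenic BDIX.BDIV-Mss4a (called congenic here), BDIV and BDIX. BDIX rats develop malignant schwannomas of this nerve after exposure to ethylnitrosourea and BDIV rats resist them. The congenic carries the BDIV segment Mss4a, linked to that resistance, on the BDIX background, and none of the rats measured had been exposed to the carcinogen. Each strain was thus seen as 1 male and 1 female pool, with no repeat pool of a strain and sex. The p-values below rest on how unequal the sex difference was across strains, combined with a spread borrowed from all tested probes. They do not measure the spread between animals or between repeat pools.

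Fatty acids for membranes and for myelin, the lipid-rich sheath that Schwann cells wrap around axons, are built in the cytosol from acetyl-CoA. Acly makes that acetyl-CoA from citrate, acetyl-CoA carboxylase (Acaca) and fatty acid synthase (Fasn) turn it into saturated chains, and elongases and desaturases such as Scd and Fads1 lengthen the chains and add double bonds. A fatty acid enters membrane lipids or oxidation only after an acyl-CoA synthetase such as Acsl3 or Acsbg1 has joined it to coenzyme A, and thioesterases such as Acot7 undo that step. The transcription factor SREBP-1 (Srebf1) drives many of these genes in liver and in myelinating glia.

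The intensities deposited for the 2 congenic arrays stood closer to background than those of the other 4. Measured as the upper quartile of the signal over the background, the male and female arrays had 2.58 and 2.64 in the congenic, 6.45 and 6.46 in BDIV and 5.33 and 5.95 in BDIX. Strain cannot be told apart from this brightness, since each strain had its own range. All values below are log2 intensities after background correction and quantile normalization, which gives every array the same distribution. The arrays of a strain differed by sex to unequal degrees, with an SD over 10484 tested probes of the male minus female difference of 0.465 in the congenic, 0.215 in BDIV and 0.524 in BDIX. A value of 1 on the log2 scale is a doubling, and levels are set against each other only within 1 probe, because probes differ in how brightly they bind.

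Of the 8 genes, 7 were detected on all 6 arrays, meaning a detection p under 0.01 against the negative controls. Thrsp was detected on 4. In the congenic against BDIX, 5 of the 8 were lower and 2 were higher. In BDIV against BDIX, 3 were lower and 2 were higher, and in the congenic against BDIV 2 were lower. These are calls at a Benjamini-Hochberg adjusted p under 0.05 in a limma model of strain and sex, adjusted over all 10484 probes tested. The first comparison had calls in 11.8% of all tested probes (4.26% higher and 7.58% lower), the second in 27.3% (13.7% in each direction) and the third in 36.9% (18.1% higher and 18.8% lower). The counts for the 8 genes are read against these shares, and in bulk tissue fewer cells of a type and less RNA per cell cannot be told apart. Probes detected on all 6 arrays, as 7 of the 8 were, had calls in 15.2%, 34.4% and 39% when tested alone, in the same order. The 8 genes were chosen with earlier results of these data known, so their counts are a description and not a test of the group.

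**Figure D1:**
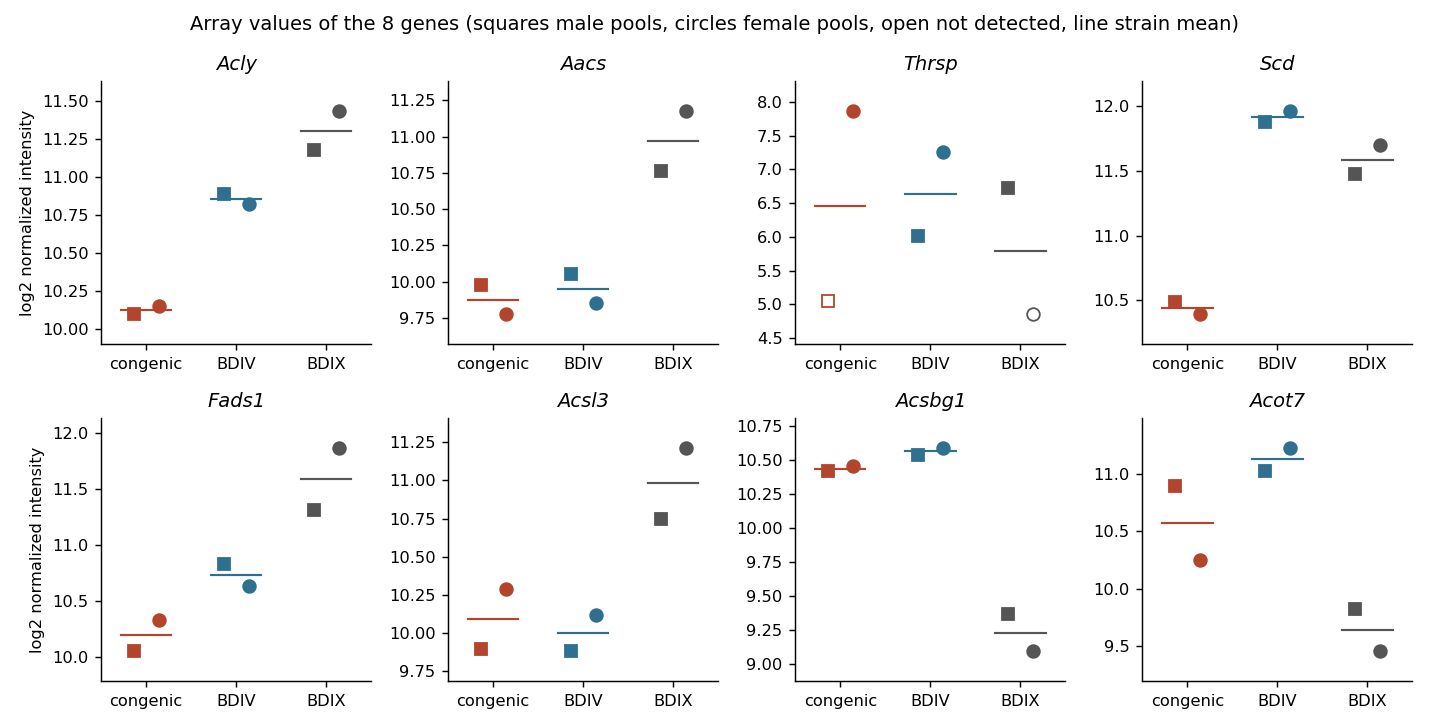
Log2 normalized intensity (vertical axis, 1 scale per gene) of each of the 8 genes on the 6 arrays, by strain. Squares are male pools, circles are female pools, open symbols mark an array on which the probe was not detected, and the line is the mean of the strain's 2 arrays. Acly, Aacs, Fads1 and Acsl3 have both BDIX arrays on top, Acsbg1 and Acot7 have both at the bottom, Scd has both congenic arrays at the bottom, and for Thrsp the strains overlap.

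Aacs, Fads1 and Acsl3 were lower, and Acsbg1 and Acot7 higher, both in the congenic and in BDIV when set against BDIX, and the sequence upstream of these 5 genes is shown for that reason. The sequences are from RefSeq on the rat assembly GRCr8 and run 5′ to 3′ over the 250 bases before the annotated start of transcription. Capitals mark matches, on either strand, to 4 short motifs: CCAAT, the box bound by NF-Y; CACGTG, the E-box; GGGCGG, the GC box bound by Sp1; and TCACNCC, the core of the sterol regulatory element bound by SREBPs. Adjoining or overlapping matches run together. Acot7 had 2 annotated starts, of which the first is shown.
Aacs (chr12:36817775-36818024, minus strand): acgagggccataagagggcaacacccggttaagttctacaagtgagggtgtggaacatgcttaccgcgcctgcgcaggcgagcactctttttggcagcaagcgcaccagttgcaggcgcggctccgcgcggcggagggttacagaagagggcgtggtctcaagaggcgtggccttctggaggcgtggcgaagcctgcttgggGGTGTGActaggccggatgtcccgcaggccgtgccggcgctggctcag
Fads1 (chr1:216252442-216252691, plus strand): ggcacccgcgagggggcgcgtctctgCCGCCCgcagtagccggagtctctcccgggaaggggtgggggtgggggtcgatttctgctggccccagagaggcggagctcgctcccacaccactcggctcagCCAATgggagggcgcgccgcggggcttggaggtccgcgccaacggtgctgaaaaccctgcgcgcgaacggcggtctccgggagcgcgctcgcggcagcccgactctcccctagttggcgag
Acsl3 (chr9:87563351-87563600, plus strand): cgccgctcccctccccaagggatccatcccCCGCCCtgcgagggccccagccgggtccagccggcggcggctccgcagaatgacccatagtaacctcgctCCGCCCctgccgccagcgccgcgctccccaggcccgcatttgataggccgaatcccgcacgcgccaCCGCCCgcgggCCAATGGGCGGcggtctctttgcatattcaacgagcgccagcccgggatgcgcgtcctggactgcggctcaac
Acsbg1 (chr8:63943279-63943528, minus strand): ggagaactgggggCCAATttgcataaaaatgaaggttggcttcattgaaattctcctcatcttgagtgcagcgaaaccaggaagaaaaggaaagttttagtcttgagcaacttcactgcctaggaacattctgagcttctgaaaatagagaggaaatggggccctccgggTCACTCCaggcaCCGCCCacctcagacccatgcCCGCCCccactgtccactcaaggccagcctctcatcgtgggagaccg
Acot7 (chr5:167969152-167969401, plus strand): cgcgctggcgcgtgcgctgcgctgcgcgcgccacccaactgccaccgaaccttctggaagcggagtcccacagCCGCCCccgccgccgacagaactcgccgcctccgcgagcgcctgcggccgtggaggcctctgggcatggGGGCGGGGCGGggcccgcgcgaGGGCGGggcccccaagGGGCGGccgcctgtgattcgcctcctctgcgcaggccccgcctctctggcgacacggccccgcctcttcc

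Over 300 bases, these 250 and the first 50 after the start, Aacs held 1 TCACNCC match and no other at positions -48 to -42, counted from the start. Acsbg1 held a TCACNCC match too at positions -80 to -74, with 1 CCAAT and 2 GGGCGG matches. Fads1 had 1 CCAAT and 1 GGGCGG match. Acsl3 had 1 CCAAT match with a GGGCGG match beginning on the next base, and 3 more GGGCGG matches. The first start of Acot7 held 5 GGGCGG matches, of which 2 shared a base, and its second start held none of the motifs. Among the other genes Acly and Thrsp had both CCAAT and GGGCGG, and the Scd window had a match to none of the 4. The motifs are common: of 33469 promoters of the same length, 37.5% held CCAAT, 33.1% GGGCGG, 14.6% TCACNCC and 6.42% CACGTG. The 3 motifs that were found occurred both upstream of genes that were higher and upstream of genes that were lower, and a match in this window is a description of letters, not a bound site.

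Acly, ATP-citrate lyase, supplies the cytosol with acetyl-CoA. As deposited, before normalization, its male and female signals were 670 and 688 in the congenic, 2757 and 2556 in BDIV and 2512 and 2704 in BDIX. After normalization Acly stood at 10.10 and 10.15 in the congenic, 10.89 and 10.82 in BDIV and 11.18 and 11.43 in BDIX. The strains did not overlap, with the congenic lowest and BDIX highest. It was 2.26-fold lower in the congenic than in BDIX, a log2 difference of -1.18 ± 0.18 (SE, limma adjusted p = 0.0164). Acly was lower in the congenic than in BDIV by a log2 difference of -0.73 ± 0.18 (limma adjusted p = 0.0182). The difference of BDIV from BDIX, -0.45 ± 0.18, did not pass (limma adjusted p = 0.0972). The first call was lost without the congenic male array (limma adjusted p = 0.0525) and without the congenic female array (0.0637), at differences of -1.19 and -1.15. Against BDIV the call was lost without any single one of the 4 arrays compared, with limma adjusted p from 0.100 to 0.194, and the BDIV to BDIX difference passed without the BDIX male array (-0.58, limma adjusted p = 0.0165).

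Aacs, acetoacetyl-CoA synthetase, activates the ketone body acetoacetate in the cytosol for lipid synthesis. Its levels were 9.98 and 9.78 in the congenic male and female pools, 10.05 and 9.85 in the BDIV pools and 10.76 and 11.17 in the BDIX pools. The congenic and BDIV arrays overlapped, and both BDIX arrays lay above all 4. Aacs was lower in the congenic than in BDIX by a log2 difference of -1.09 ± 0.21 (limma adjusted p = 0.0266). In BDIV it was lower than in BDIX by -1.02 ± 0.21 on the same scale (limma adjusted p = 0.0151). The congenic and BDIV differed by -0.07, with a 95% interval from -0.57 to 0.42 (limma adjusted p = 0.804). Without the congenic female array the first difference was -0.94 (limma adjusted p = 0.132), and without the BDIV female array the second was -0.86 (limma adjusted p = 0.159). Of 3 tested genes of ketone body use, Bdh1, the mitochondrial enzyme that interconverts the ketone bodies, was the one called in BDIV against BDIX, higher by a log2 difference of 1.60 ± 0.22 (limma adjusted p = 0.00493).

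Scd, stearoyl-CoA desaturase, makes monounsaturated acyl-CoA from saturated acyl-CoA. As deposited, its male and female signals were 859 and 805 in the congenic, 5436 and 5744 in BDIV and 3070 and 3205 in BDIX. Normalized, it stood at 10.49 and 10.40 in the congenic, 11.88 and 11.96 in BDIV and 11.47 and 11.70 in BDIX. The congenic arrays were lowest in both sexes, and BDIV lay above BDIX without overlap. Scd was 2.78-fold lower in the congenic than in BDIV (log2 difference -1.47 ± 0.18, limma adjusted p = 0.00237), the one call that held under all 12 alternative settings in that comparison. Against BDIX it was 2.21-fold lower in the congenic (-1.14 ± 0.18, limma adjusted p = 0.0173), which did not pass without the congenic female array (-1.02, limma adjusted p = 0.102). BDIV against BDIX gave 0.33 ± 0.18, with a 95% interval from -0.08 to 0.74 (limma adjusted p = 0.195). Scaling each array to a common median in place of quantile normalization brought that last difference to 0.60 (limma adjusted p = 0.0312). Scd2, a close copy of Scd in rodents and a desaturase of the nervous system, had its own probe at 14.43 and 14.53 in the congenic, 15.01 and 14.67 in BDIV and 15.22 and 15.14 in BDIX. Its difference of -0.70 ± 0.22 between the congenic and BDIX did not pass (limma adjusted p = 0.0765), and probe sequences were not analysed here, so signal shared between the copies cannot be told apart.

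Fads1 is the desaturase of the last step to arachidonic acid. It stood at 10.06 and 10.33 in the congenic male and female pools, 10.83 and 10.63 in BDIV and 11.31 and 11.86 in BDIX. The 3 strains did not overlap, with the order congenic, BDIV, BDIX from low to high. Fads1 had the largest change of the 8 genes between the congenic and BDIX, 2.62-fold lower (log2 difference -1.39 ± 0.22, limma adjusted p = 0.0177). That call held under all 12 alternative settings, the one member of which that was true in this comparison. It was lower in BDIV than in BDIX by -0.85 ± 0.22 (limma adjusted p = 0.0275), though without the BDIV female array the difference was -0.54 (limma adjusted p = 0.371) and with median scaling -0.61 (limma adjusted p = 0.0574). Between the congenic and BDIV the difference of -0.54 ± 0.22 did not pass (limma adjusted p = 0.0905). It passed without the BDIX male array (limma adjusted p = 0.0126) or the BDIX female array (0.00942), at an almost equal size of -0.54 in both cases, and with median scaling at -1.33 (limma adjusted p = 0.00118). Fads2, the enzyme of the preceding desaturation, was at 6.37 and 5.93 in the congenic, 7.13 and 6.62 in BDIV and 6.71 and 6.56 in BDIX. In the congenic female pool 10 of 12 tested fatty acid synthesis, elongation and desaturation genes were detected, and Fads2 and Acaca had the lowest levels. Fads2 was lower in the congenic than in BDIV (-0.72 ± 0.23, limma adjusted p = 0.0456), a call lost without any one of the 4 arrays compared (0.0998 to 0.328), while its difference of -0.49 ± 0.23 from BDIX did not pass (limma adjusted p = 0.186).

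Acsl3 activates long-chain fatty acids at the endoplasmic reticulum and on lipid droplets. Levels were 9.89 and 10.29 in the congenic male and female pools, 9.89 and 10.12 in BDIV and 10.75 and 11.21 in BDIX. Both BDIX arrays were above the other 4, and the congenic and BDIV arrays overlapped. Acsl3 was 1.85-fold lower in the congenic than in BDIX (log2 difference -0.89 ± 0.17, limma adjusted p = 0.0264) and 1.97-fold lower in BDIV than in BDIX (-0.98 ± 0.17, limma adjusted p = 0.00891). The congenic differed from BDIV by 0.09 ± 0.17, with a 95% interval from -0.32 to 0.49 (limma adjusted p = 0.709). The first call was lost without the congenic male array (-0.87, limma adjusted p = 0.150) or the congenic female array (-0.91, 0.133), and the second without the BDIV female array (-0.88, limma adjusted p = 0.127). The female pool was above the male pool in all 3 strains.

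Acsbg1, of the bubblegum family, activates long and very long chain fatty acids and is known from brain and adrenal gland. It stood at 10.42 and 10.46 in the congenic male and female pools, 10.54 and 10.59 in BDIV and 9.37 and 9.10 in BDIX. The sexes of a strain lay close together in the congenic and BDIV, and both BDIX arrays were lowest. Acsbg1 was 2.31-fold higher in the congenic than in BDIX (log2 difference 1.21 ± 0.18, limma adjusted p = 0.0164) and 2.52-fold higher in BDIV than in BDIX (1.33 ± 0.18, limma adjusted p = 0.00493). The difference between the congenic and BDIV was -0.13 ± 0.18, with a 95% interval from -0.55 to 0.30 (limma adjusted p = 0.603). The call in BDIV held under all 12 alternative settings. In the congenic it was lost without the congenic female array (1.14, limma adjusted p = 0.0637) and was smaller with median scaling (0.59, limma adjusted p = 0.0379).

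Acot7 hydrolyses long-chain acyl-CoA to the free fatty acid and is most abundant in neurons. Its levels were 10.89 and 10.25 in the congenic male and female pools, 11.03 and 11.23 in BDIV and 9.82 and 9.46 in BDIX. Both BDIX arrays were lowest and both BDIV arrays highest, with the congenic pools between and 0.65 apart. Acot7 was 2.81-fold higher in BDIV than in BDIX (log2 difference 1.49 ± 0.23, limma adjusted p = 0.0065), which was lost without the BDIV female array (1.14, limma adjusted p = 0.0595). In the congenic it was 1.91-fold higher than in BDIX (0.93 ± 0.23, limma adjusted p = 0.0445), the weakest of the 7 calls there. That call did not hold without the congenic male array (0.65, limma adjusted p = 0.301), without the congenic female array (1.21, 0.0543), with median scaling (0.34, 0.258), on the authors' processed values (1.07, 0.0665) or with all probes tested (0.93, 0.0646). Against BDIV the congenic difference of -0.56 ± 0.23 did not pass (limma adjusted p = 0.0948), except without the BDIX male array (0.0360) or the BDIX female array (0.0268) or with median scaling (-1.33, limma adjusted p = 0.00146).

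Thrsp, the thyroid hormone responsive protein Spot 14, promotes lipogenesis in liver, fat and mammary gland. As deposited, its male and female signals were 94.1 and 191 in the congenic, 133 and 256 in BDIV and 160 and 64.1 in BDIX. The probe was not detected in the congenic male pool or in the BDIX female pool. Normalized, it stood at 5.04 and 7.86 in the congenic, 6.02 and 7.26 in BDIV and 6.72 and 4.86 in BDIX, so the strains overlapped and the pools of a strain lay up to 2.81 apart. No strain difference passed: 0.66 ± 0.91 for the congenic against BDIX (limma adjusted p = 0.634), 0.85 ± 0.91 for BDIV against BDIX (0.516) and -0.19 ± 0.91 for the congenic against BDIV (0.886). These take in the 2 values at background. Calls came and went with single arrays, at 2.30 for the congenic against BDIX without the congenic male array (limma adjusted p = 0.0258), 2.59 without the BDIX male array (0.00842), 2.77 for BDIV against BDIX without the BDIX male array (0.00332) and -1.83 for the congenic against BDIV without the congenic female array (0.0320).

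**Figure D2:**
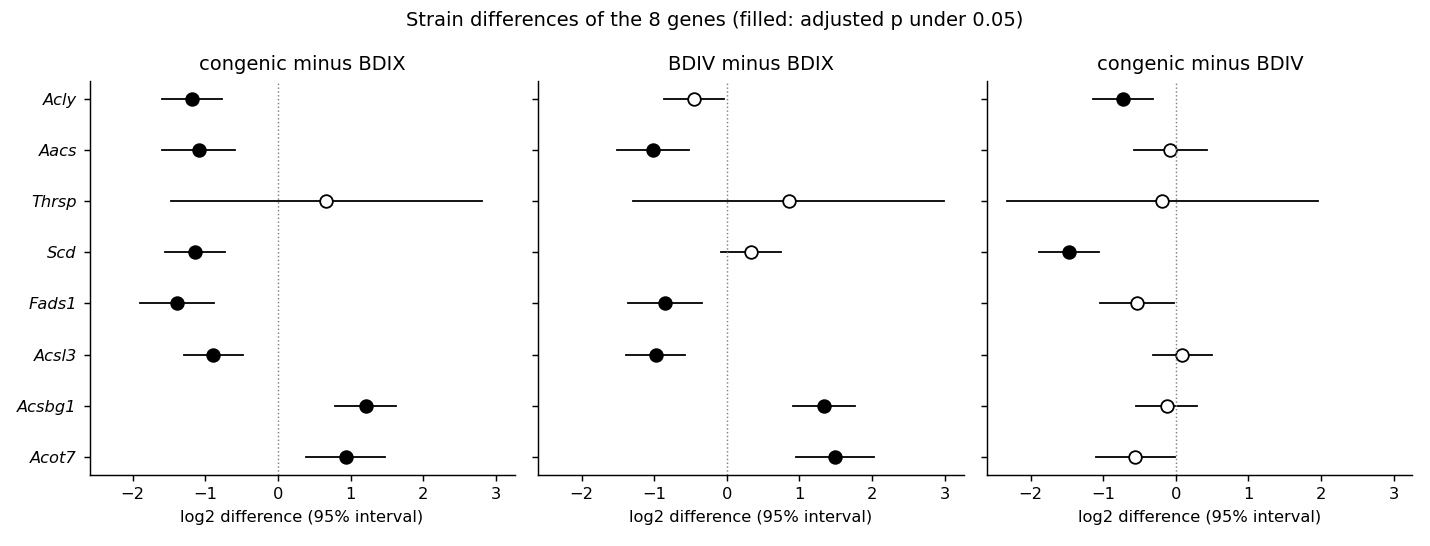
Log2 difference (horizontal axis) of each of the 8 genes in the congenic against BDIX, BDIV against BDIX and the congenic against BDIV, with the 95% interval from the limma model as a line. Filled points passed at an adjusted p under 0.05. Fads1 at -1.39 and Acsbg1 at 1.21 lie farthest from 0 in the congenic against BDIX among the called genes, and the Thrsp intervals span 0 in all 3 panels.

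Over all 8 genes the median log2 difference was -0.99 in the congenic against BDIX, where the median of all tested probes was 0.00166. In BDIV against BDIX it was -0.06 (all probes -0.03), and in the congenic against BDIV -0.36 (all probes -0.02). Both comparisons against BDIX share the BDIX arrays, so they are given side by side and not as repeats. As the 8 genes were chosen with earlier results of these data known, their medians and counts are descriptive. Both arrays of the strain lay below both BDIX arrays for 5 of the 8 genes in the congenic, against 29.2% of all tested probes, and above them for 2, against 29.8%. In BDIV 4 genes lay below and 3 above, against 37.7% and 33% of tested probes. For the congenic and BDIV arrays 5 genes lay below and 0 above, against 39.8% and 39.2%. Without the congenic female array 1 of the 8 was called in the congenic against BDIX, and without the BDIV female array 1 was called in BDIV against BDIX. With median scaling, which lowered the median of all probes by 0.479 in the congenic against BDIX, 6 of the 8 genes were called in that comparison and Aacs (-1.65) and Acsl3 (-1.46) were over 1.5 times as far from 0, while differences relative to that median ran from -1.46 for Fads1 to 1.07 for Acsbg1. The same scaling moved the median of all probes to -0.606 in the congenic against BDIV, where 7 of the 8 genes were then called lower. Among these Scd was at -2.29 and Acly at -1.52, and Acsl3 changed sign to -0.70 (limma adjusted p = 0.0111). Over all tested probes, median scaling called 36.5% lower and 1.12% higher in the congenic against BDIX. Against BDIV it called 49.1% lower and 5.28% higher.

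**Figure D3:**
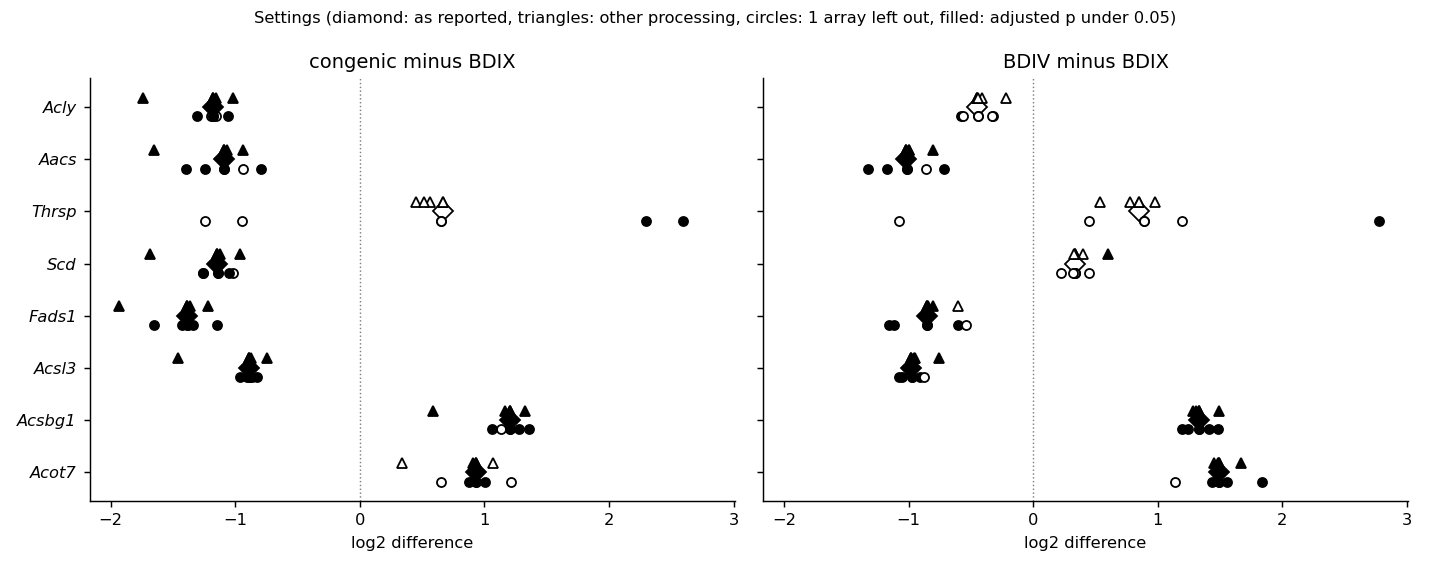
Log2 difference (horizontal axis) of each of the 8 genes in the congenic against BDIX and in BDIV against BDIX under each processing. Diamonds are the values as reported, triangles are other processing of all arrays, circles leave out 1 array, and filled symbols passed at an adjusted p under 0.05. For the congenic against BDIX the Acly values run from -1.74 to -1.02 and those of Acot7 from 0.34 to 1.21, and Thrsp changes sign, from -1.24 to 2.59.

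Male and female pools were compared over the 3 strains. None of the 8 genes passed, and 0 of 10484 probes did in limma, with 315 at an unadjusted p under 0.05. Acsl3 was lower in males in 3 of 3 strains, at 9.89 against 10.29 in the congenic, 9.89 against 10.12 in BDIV and 10.75 against 11.21 in BDIX. Its male minus female difference was -0.36 ± 0.14 (limma unadjusted p = 0.0354, adjusted p = 0.960), and 12.6% of all tested probes were lower in males in 3 of 3 strains. The other 7 genes changed direction between strains. Thrsp was the widest of them, the male minus female difference being -2.81 in the congenic, -1.24 in BDIV and 1.86 in BDIX. With 1 array per strain and sex, a difference of the sex effect between strains cannot be tested.

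Several genes of other glia had sex differences with the same signs as Thrsp in the 3 strains. Mog, a protein of the oligodendrocyte myelin of the central nervous system, had male minus female differences of -2.91 in the congenic, -1.83 in BDIV and 2.07 in BDIX. For Mobp, another oligodendrocyte myelin protein, the differences were -3.63, -1.65 and 1.50, and for the oligodendrocyte transcription factor Olig1 they were -2.50, -1.88 and 1.68, in the same order of strains. Aqp4, the water channel of astrocytes, had -2.70, -1.29 and 0.37. Of the oligodendrocyte list 4 of 6 tested genes were higher in the female pool of the congenic and of BDIV and lower in that of BDIX, as were 5 of 6 tested genes of satellite glia and astrocytes, against 12.8% of all tested probes. The other 2 oligodendrocyte genes, Cldn11 and Hapln2, were higher in the female pool of all 3 strains. For Cldn11 the male minus female differences were -1.17, -1.26 and -0.84 in the congenic, BDIV and BDIX. Those of Hapln2 were -0.62, -0.48 and -0.06. The summed level of the 6 oligodendrocyte genes was 2594 and 6544 in the congenic male and female pools, 2661 and 5223 in BDIV and 2421 and 2171 in BDIX, on the linear normalized scale. Within that list Opalin and Olig2 were not detected on any array. The part of central nervous system tissue in the Thrsp values was not tested.

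**Figure D4:**
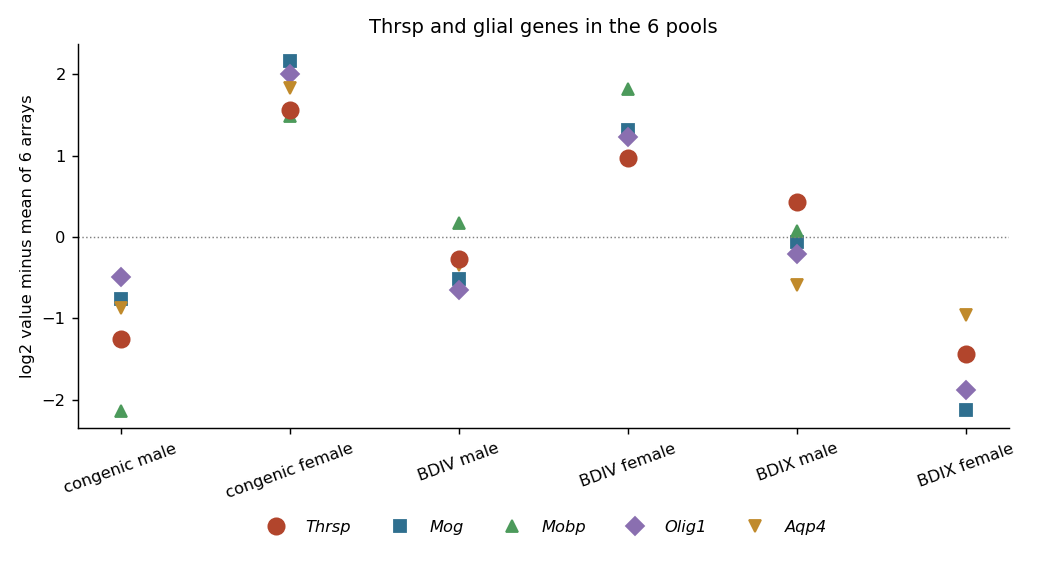
Log2 value minus the mean of the 6 arrays (vertical axis) for Thrsp and for the glial genes Mog, Mobp, Olig1 and Aqp4 in each of the 6 pools. All 5 genes are highest in the congenic female and BDIV female pools, and Thrsp is undetected in the congenic male and BDIX female pools, where its symbol covers that of Mobp in the BDIX female pool. The oligodendrocyte genes Cldn11 and Hapln2, higher in the female pool of all 3 strains, are not drawn.

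Other lipid genes were counted in lists, as far as their probes were tested. Of the fatty acid synthesis, elongation and desaturation list 12 of 23 genes were tested, and Fasn was not analysed here. Its counts are read against calls in 11.8% of all tested probes in the congenic against BDIX. The shares were 27.3% in BDIV against BDIX, near that of the list, and 36.9% in the congenic against BDIV. In the congenic against BDIX 1 was higher and 2 were lower, with a list median of -0.47 against 0.00166 over all probes. Hsd17b12 (-1.14 ± 0.18, limma adjusted p = 0.0178) and Hacd3 (-1.15 ± 0.27, limma adjusted p = 0.0406), both of the elongation cycle, were the lower ones. Mecr, of mitochondrial fatty acid synthesis, was higher (0.88 ± 0.22, limma adjusted p = 0.0483). Acaca, the carboxylase after Acly, had a difference of -1.18 ± 0.35 that did not pass (limma adjusted p = 0.0670). Its level of 5.82 in the congenic female pool was the lowest of the list there, where 10 of the 12 genes were detected. The list median in BDIV against BDIX was -0.03, near that over all probes, with 2 higher and 1 lower. There Elovl2, an elongase of polyunsaturated chains, was higher (1.33 ± 0.22, limma adjusted p = 0.00794), as was Mecr (1.08 ± 0.22, 0.0148), and Acss2, which makes acetyl-CoA from acetate, was lower (-0.86 ± 0.23, 0.0300). Neither Mecr nor Acss2 passed there without one or the other BDIV array, with limma adjusted p from 0.0726 to 0.237. Between the congenic and BDIV 0 were higher and 5 lower, namely Elovl2, Elovl5, Hsd17b12, Hacd3 and Fads2. Single pools moved these counts: in the congenic against BDIX 8 were lower without the BDIX male array and 0 without the congenic female array, and in the congenic against BDIV 1 was lower without either BDIV array and 0 without the congenic female array. Hsd17b12 did not pass against BDIX without the congenic male (limma adjusted p = 0.0883) or congenic female array (0.0581), nor Hacd3 without the congenic female array (0.185), and Mecr was lost without any one of the congenic male, congenic female, BDIX female or BDIV arrays.

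Of the acyl-CoA list (synthetases, thioesterases and binding proteins) 17 of 32 genes were tested. Calls over all tested probes were 11.8% in the congenic against BDIX, 27.3% in BDIV against BDIX and 36.9% in the congenic against BDIV. The share of the list called was near that of all probes in the first comparison. Against BDIX the congenic had 1 higher and 1 lower: Acsl6, an acyl-CoA synthetase of neurons, at 0.87 ± 0.19 (limma adjusted p = 0.0353), and Acot9, a mitochondrial thioesterase, at -1.35 ± 0.18 (limma adjusted p = 0.0128). In BDIV against BDIX 4 were higher and 3 lower. Among the higher ones were Acsl6 (1.94 ± 0.19, limma adjusted p = 0.00272) and the thioesterase Acot1 (1.44 ± 0.19, limma adjusted p = 0.00466). The lower ones included the fatty acid transport protein Slc27a1 (-1.29 ± 0.19, limma adjusted p = 0.00565) and the synthetase Acsl5 (-1.06 ± 0.21, limma adjusted p = 0.0132). Acot1 and Acot2 are near copies of each other, and signal shared between their probes cannot be told apart here. Between the congenic and BDIV the list had 4 higher and 4 lower. Its medians of -0.24, -0.06 and -0.19 in the 3 comparisons lay near those of all probes in the second and below them in the others. With median scaling 0 were higher and 10 lower in both comparisons of the congenic. Of all tested probes that scaling called 36.5% lower and 1.12% higher against BDIX, and 49.1% lower and 5.28% higher against BDIV. Without the BDIV female array 2 were higher and 0 lower in BDIV against BDIX, and 0 were higher and 1 lower in the congenic against BDIV. Slc27a1 (limma adjusted p = 0.0644) and Acsl5 (0.134) were among those lost in BDIV against BDIX, and Acsl5 was lost without the BDIV male array as well (0.0914). In the congenic against BDIX Acot9 passed under all 12 alternatives, whereas Acsl6 did not without any one of the congenic or BDIV arrays, with limma adjusted p from 0.0637 to 0.170.

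**Figure D5:**
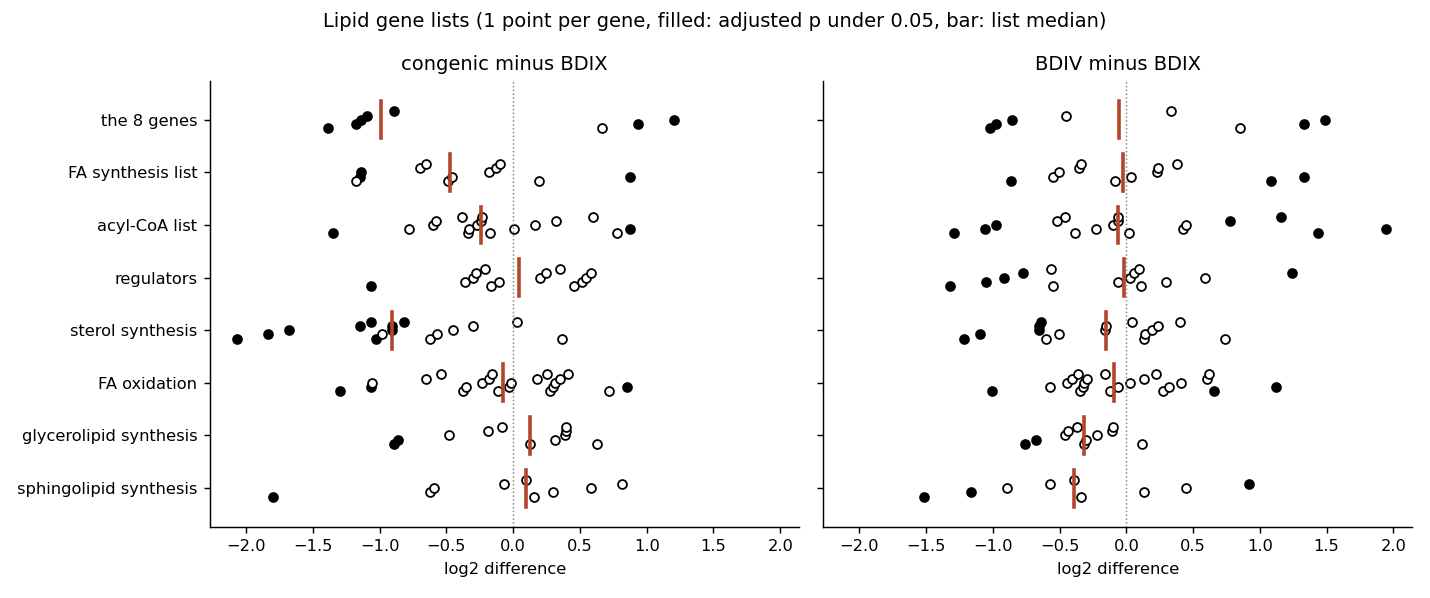
Log2 difference (horizontal axis) of each tested gene of 8 groups of lipid genes (rows; FA stands for fatty acid) in the congenic against BDIX and in BDIV against BDIX. Each point is 1 gene, filled at an adjusted p under 0.05, and the bar is the median of the row. The medians of the 8 genes (-0.99) and of sterol synthesis (-0.91) lie lowest in the left panel, and in the right panel the 8 genes split to both sides of 0.

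Of 14 tested regulators of the pathway 0 were higher and 1 was lower in the congenic against BDIX, where 4.26% of all tested probes were higher and 7.58% lower. In BDIV against BDIX 1 was higher and 4 were lower, against 13.7% of all probes in each direction, and in the congenic against BDIV 3 were higher and 1 was lower, against 18.1% and 18.8%. The count in BDIV against BDIX was 0 higher and 1 lower without the BDIV female array. Srebf1 stood at 11.02 and 11.09 in the congenic male and female pools, 9.68 and 9.58 in BDIV and 10.29 and 10.80 in BDIX. It was highest in the congenic and lowest in BDIV, without overlap. Srebf1 was higher in the congenic than in BDIV (1.43 ± 0.20, limma adjusted p = 0.00363) and lower in BDIV than in BDIX (-0.91 ± 0.20, limma adjusted p = 0.0185), and the difference of 0.51 ± 0.20 between the congenic and BDIX did not pass (limma adjusted p = 0.128). The BDIV to BDIX difference was -0.72 without the BDIV female array (limma adjusted p = 0.233). Acly and Scd, which SREBP-1 is known to drive in liver, were lowest in the congenic. Active SREBP-1 protein was not measured, and the part of Srebf1 in the Acly and Scd levels was not tested. Scap, which escorts SREBPs to their activation in the Golgi, stood at 9.74 and 9.83 in the congenic, 11.02 and 10.88 in BDIV and 10.67 and 11.04 in BDIX. Scap was lower in the congenic than in BDIX (-1.07 ± 0.19, limma adjusted p = 0.0231) and than in BDIV (-1.16 ± 0.19, limma adjusted p = 0.00531). The first of these did not pass without the congenic male (limma adjusted p = 0.0814) or congenic female array (0.0904), nor the second without the BDIV male array (0.0508). Mbtps1, another regulator of the list, was highest in the congenic, at 9.84 and 9.77, against 8.49 and 8.48 in BDIV and 9.17 and 9.35 in BDIX. It was lower in BDIV than in BDIX (-0.78 ± 0.18, limma adjusted p = 0.0223). Its difference of 0.54 ± 0.18 between the congenic and BDIX did not pass (limma adjusted p = 0.0905). Srebf2 did not pass against BDIX in the congenic (-0.28 ± 0.35, limma adjusted p = 0.599) or in BDIV (-0.56 ± 0.35, 0.262). Nr1h3, the nuclear receptor LXR-alpha that raises Srebf1 transcription in liver, was lower in BDIV than in BDIX (-1.32 ± 0.19, limma adjusted p = 0.00528) and higher in the congenic than in BDIV (1.52 ± 0.19, limma adjusted p = 0.00253). Mid1ip1, the paralog of Thrsp, changed by -0.17 ± 0.18 in the congenic against BDIX and passed in none of the strain comparisons.

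Neighbouring lipid pathways were counted beside these genes, and their counts are read against calls in 11.8% of all tested probes in the congenic against BDIX and in 27.3% in BDIV against BDIX. Sterol synthesis had 9 of 16 tested genes lower in the congenic than in BDIX and 0 higher, with a median of -0.91, and 5 lower in BDIV than in BDIX with a median of -0.16. Without either congenic array the 9 became 4, and without the BDIV female array the 5 became 0. Fatty acid oxidation had 1 higher and 2 lower of 22 in the congenic against BDIX and 2 higher and 1 lower in BDIV against BDIX, with medians of -0.07 and -0.09, so its share of calls was near that of all probes in the first comparison and below it in the second. Glycerolipid synthesis had 0 higher and 2 lower of 11 in each of these comparisons, and myelin sphingolipid synthesis 1 lower of 9 in the congenic and 1 higher and 2 lower in BDIV. Without the BDIV female array 0 genes of these 3 pathways passed in BDIV against BDIX. Ugt8, which makes the galactolipids of myelin, was the one lower in the congenic (-1.80 ± 0.20, limma adjusted p = 0.00913), and it was lower in BDIV as well (-1.16 ± 0.20, limma adjusted p = 0.00837), though not without the BDIV female array (0.122). Among the genes of the lipid and regulator lists called in a strain comparison, the sign changed under an alternative setting in 4 cases (Slc27a4, Acbd3, Hadhb and Dgat1), all in the congenic against BDIV with median scaling.

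Markers of cell types were called between strains too, where 7.58% of all tested probes were lower and 4.26% higher in the congenic than in BDIX, and 13.7% were called in each direction in BDIV. Myelinating Schwann cell markers were lower for 3 of 9 tested genes in the congenic than in BDIX and for 6 of 9 in BDIV, with 0 higher in either. Their summed level ranged from 88094 to 96620 in the congenic, from 53709 to 65742 in BDIV and from 98890 to 136472 in BDIX. Sensory neuron and axon markers were higher for 10 of 15 tested genes in BDIV than in BDIX with 0 lower, and for 2 in the congenic with 1 lower. Their summed level ranged from 109887 to 137890 in the congenic, from 169356 to 169721 in BDIV and from 91339 to 110245 in BDIX. Without the BDIV female array the counts in BDIV were 2 lower myelinating Schwann cell markers and 2 higher neuronal markers, and without the BDIV male array 6 neuronal markers were higher. In the congenic 0 neuronal markers passed without either congenic array, and 5 myelinating Schwann cell markers were lower without either BDIX array. Fibroblast markers were lower in BDIV than in BDIX for 6 of 8 tested genes with 0 higher, for 3 of them without the BDIV male array and for 0 without the BDIV female array, while in the congenic 2 were lower and 1 was higher. Of 7 markers of the Schwann cell lineage Sox10 and Erbb3 were lower in BDIV with 0 higher, and none passed in the congenic. Red cell markers were lower in BDIV than in BDIX for 7 of 8 tested genes and in the congenic for 3 of 8. In BDIV Acsbg1 and Acot7 thus moved with most neuronal markers, and Aacs, Fads1 and Acsl3 with most markers of myelinating Schwann cells, fibroblasts and red cells. In the congenic Acsbg1 and Acot7 were higher as well, while most neuronal markers were not called. Aacs, Fads1 and Acsl3 were lower in the congenic too. There 6 of 9 myelinating Schwann cell markers, 5 of 8 fibroblast markers and 5 of 8 red cell markers were not called. The 6 tested satellite glia and astrocyte genes had medians of 0.58 in BDIV and 0.67 in the congenic against BDIX. Of them 1 was called higher and 0 lower in BDIV, and 1 higher and 1 lower in the congenic. The part of cell composition in these values was not tested. Fat tissue is a common neighbour of nerve and expresses Acly, Scd and Thrsp. Of its markers Adipoq, Cidec, Lep, Retn, Fabp4, Car3 and Aqp7 were not detected on any array, and the 5 tested ones (Cidea, Lpl, Lipe, Pnpla2 and Cfd) summed to 4291 to 4823 in the congenic, 3381 to 4285 in BDIV and 4877 to 4992 in BDIX. Members of that sum went both ways: Cidea was higher (2.06, limma adjusted p = 0.00837) and Pnpla2 lower (-1.0, 0.0231, though not without the BDIV female array) in BDIV than in BDIX, and Lipe was higher in the congenic than in BDIX (1.30, limma adjusted p = 0.0264).

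Other genes with the most similar course over the 6 arrays were found by the root mean square difference of log2 values, each probe centred on its own mean, among 7789 named probes outside the 8 genes. Nearest to Acly were Mier3, Ift70a2 and P4hb, at 0.06 each. Cyfip1, Mcmbp and Itm2a were nearest to Aacs, at 0.08 to 0.10. For Scd they were Hsf2, Zcchc17 and Rabl2, at 0.07 to 0.08, and for Fads1 Calu, Elf1 and Mpdz, at 0.04 to 0.08. Phc3, Ier5 and Glt8d1 lay nearest to Acsl3, at 0.05 to 0.10. Acsbg1 had Ggact, Aqp11 and Pgm5 at 0.09 to 0.12, and Acot7 had Impa2, Msrb2 and Tagln3 at 0.08 to 0.11. Thrsp had larger distances, the nearest being S1pr5 at 0.43, Gabrb1 at 0.43 and Aqp4 at 0.49. This distance grows with the range of a gene, and Thrsp had the widest of the 8, at 3.0. The Pearson correlations of these 3 genes with Thrsp over the 6 arrays were 0.94, 0.92 and 0.89. S1pr5, a sphingosine phosphate receptor of oligodendrocytes, and Aqp4 are glial genes of the central nervous system.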

How the data were processed

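Per the file headers, the authors deposited a signal intensity and a detection p-value for each probe and array. The program was BeadStudio 3.0, per the submitters' processing notes. Those intensities are linear and have had no background subtracted. A second deposited table holds processed intensity values, and on each array these are the signal minus a level, times a slope between 0.326 and 0.993. How level and slope were set, and the genome build, are not given in the sources used here. Some probes lay off that line (relative tolerance 0.01), 242 of 21791, and were left out. Gene names come from the platform annotation: 13387 probes had 1 symbol and 8404 had none, and 13349 were matched to the RefSeq gene table by gene number.

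Background was corrected with a normal-exponential model estimated from the detection p-value (825 negative control steps; 617 probes between steps did not enter the estimate), 16 was added as an offset, and log2 values were taken after quantile normalization (limma 3.58.1, R 4.3.3; Python 3.11.15 for tables and figures). The 10484 probes tested were those detected (p under 0.01) on 2 or more of the 6 arrays. All 6 arrays entered 1 limma model of strain and sex, with 2 residual and 5.23 prior degrees of freedom and an intensity trend, and every adjusted p is from limma with Benjamini-Hochberg adjustment. The fits were also run on simulated data with the same spread on every array. The real arrays differed in spread by strain, so that run does not show how reliable the calls are. The number of arrays limits the precision. Alternatives were median scaling, the authors' processed values, no filter, detection on all 6 arrays, no sex term, an offset of 50 and leaving out each array in turn, which leaves 1 residual degree of freedom and a lone array assumed to vary like the others.

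The 8 genes and all gene lists were chosen with earlier results of these data known. Named genes were the 8, up to 4 genes per list and comparison with the smallest p, genes of the members' enzyme steps, and the 3 nearest profiles of each. Where another gene was named, it was chosen after its values were seen. For a gene of several probes the list used the brightest. Probe sequences were not analysed here, so an allele that weakens binding to a probe cannot be told apart from less transcript. No hybridisation batch is labelled, so strain and batch cannot be told apart. Promoter sequences are from RefSeq on GRCr8, where all 8 genes matched, with 9 starts.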

Additional observations from a re-analysis of the deposited data

Results flagged for a closer look

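Thrsp was the one gene of the 8 whose strain differences ran opposite ways in the 2 sexes. In the congenic against BDIX the log2 difference was -1.67 in males and 3.0 in females. In BDIV against BDIX it was -0.70 in males and 2.40 in females, and in the congenic against BDIV -0.97 in males and 0.60 in females. Each value rests on 1 array per strain and sex, and the difference between the sexes was not tested. The probe was not detected in the congenic male and BDIX female pools, so the male values of the congenic and the female values against BDIX each have a value at background on one side.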

How the results depend on the processing

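The number of probes called in the congenic against BDIX was 1242. It was 3940 with median scaling (117 higher and 3823 lower), 722 on the authors' processed values and 670 with no filter on dim probes, and from 741 to 2989 with 1 array left out. In BDIV against BDIX the count of 2867 became 484 to 4267 with 1 array left out, and in the congenic against BDIV 3867 became 1174 to 5783. Male against female pools gave 0 probes, and 0 to 20 with 1 array left out. Of the 8 genes, the 7 called in the congenic against BDIX became 1 to 8 with 1 array left out, the 5 in BDIV against BDIX 1 to 7, and the 2 in the congenic against BDIV 1 to 4, or 7 with median scaling. Acsl3 in the congenic against BDIV was called in the opposite direction, at -0.70, with median scaling. Differences that were not called also changed sign, without a call in the new direction, for Thrsp in all 3 strain comparisons and for Aacs (-0.85 to 0.08) and Acsbg1 (-0.90 to 0.02) in the congenic against BDIV. The medians of all probes moved to -0.479 and -0.606 in the comparisons of the congenic under median scaling, and the cause was not tested. The 7 genes other than Thrsp kept their sign against BDIX, in the congenic and in BDIV, under all 12 alternatives. No paired analysis was possible because the labels give no replicate numbers beyond 1 pool per strain and sex, and sex is already a term of the model. The dimmer congenic arrays limit what can be seen of weakly expressed genes.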
